A study of Mus musculus with 14 samples.

Results

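The Z-disc genes are 10 mouse genes that encode proteins of the Z-disc, the plate that borders each sarcomere of striated muscle: Actn2, Actn3, Tcap, Des, Ldb3, Myot, Myoz1, Myoz2, Pdlim3 and Flnc. They were chosen by name, and their data are all peaks that the deposited annotation assigns to one of these symbols in any of 10 peak lists from chromatin immunoprecipitation followed by sequencing (ChIP-seq). The 10 genes are part of 21900 protein-coding genes in the reference gene table, and 155 peaks carried their names. All samples came from C2C12, a mouse myoblast line that fuses into myotubes when serum is lowered, harvested on day 2 of differentiation. Control cells were compared with siMyolinc cells, which had been transfected with a small interfering RNA at 10 nM against Myolinc, a long noncoding RNA. Whether the controls were transfected with a non-targeting siRNA is not stated in the labels. The antibodies recognised TDP-43, MyoD, Myogenin and RNA polymerase II phosphorylated on serine 2 of its C-terminal repeat (Pol II S2P). The TDP-43 control group had 3 libraries, and TDP-43 siMyolinc, MyoD control, MyoD siMyolinc, Myogenin control, Myogenin siMyolinc, Pol II S2P control and Pol II S2P siMyolinc had 1 each. The 4 input and IgG samples were not analysed here. Nothing in the labels ties the 3 TDP-43 controls to separate cultures, so any p-value describes the spread of these samples, which may be technical.

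As background, actin filaments of neighbouring sarcomeres are cross-linked at the Z-disc by alpha-actinin, and the other proteins dock on that lattice. Actn2 and Actn3 encode the sarcomeric alpha-actinins, Actn3 being the form of fast fibres. Tcap encodes telethonin, which caps the amino-terminal end of titin, and Des encodes desmin, the intermediate filament that links Z-discs of adjacent myofibrils. Ldb3 and Pdlim3 encode PDZ-LIM adaptors of alpha-actinin, Myot encodes myotilin, Myoz1 and Myoz2 encode the calsarcins, which also bind calcineurin, and Flnc encodes the actin cross-linker filamin C. MyoD and Myogenin are basic helix-loop-helix factors that drive muscle differentiation and bind E-boxes (CANNTG). TDP-43 binds UG-rich RNA and TG-rich DNA, and serine 2 phosphorylation marks elongating polymerase. The study asked whether Myolinc is needed for TDP-43 to occupy promoters of muscle genes.

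Promoter sequences from RefSeq (GRCm38.p6, the assembly also named mm10) were matched for 6 of the 10 genes: Actn2, Des, Flnc, Ldb3, Myoz2 and Pdlim3. Of their windows, those of Ldb3 alone were overlapped by a peak named for a Z-disc gene, and this peak came from MyoD after siMyolinc. The Ldb3 window is therefore printed first, with the 75 bases of that peak in capitals, and it lies on the minus strand at chr14:34588682-34588931.
Ldb3: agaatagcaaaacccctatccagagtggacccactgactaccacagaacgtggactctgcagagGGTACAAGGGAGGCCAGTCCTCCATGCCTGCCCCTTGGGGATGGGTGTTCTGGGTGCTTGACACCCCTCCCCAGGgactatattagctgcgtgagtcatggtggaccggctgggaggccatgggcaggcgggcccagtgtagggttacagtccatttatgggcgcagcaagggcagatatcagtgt
The peak covered bases 186 to 112 before that transcription start. The bases of neither the peak nor this window hold an E-box.
The windows of the 4 genes that do hold E-boxes are printed with the E-boxes in capitals, because MyoD and Myogenin are known to bind this motif. No peak named for a Z-disc gene overlapped these windows in any list. Peaks named for other genes were not searched there. Actn2 is on the minus strand at chr13:12340733-12340982, Des on the plus strand at chr1:75360042-75360291, Myoz2 on the minus strand at chr3:123034988-123035237 and Pdlim3 on the plus strand at chr8:45885237-45885486.
Actn2: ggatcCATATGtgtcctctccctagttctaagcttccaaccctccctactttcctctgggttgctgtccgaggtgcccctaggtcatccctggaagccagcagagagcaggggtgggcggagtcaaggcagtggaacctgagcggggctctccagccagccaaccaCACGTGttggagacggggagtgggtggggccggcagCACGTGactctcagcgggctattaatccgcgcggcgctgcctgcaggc
Des: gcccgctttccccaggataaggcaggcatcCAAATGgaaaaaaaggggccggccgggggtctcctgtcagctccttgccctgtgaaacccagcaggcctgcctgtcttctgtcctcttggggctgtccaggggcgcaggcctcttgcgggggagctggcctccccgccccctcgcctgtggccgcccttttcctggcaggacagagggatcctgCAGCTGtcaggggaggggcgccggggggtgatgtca
Myoz2: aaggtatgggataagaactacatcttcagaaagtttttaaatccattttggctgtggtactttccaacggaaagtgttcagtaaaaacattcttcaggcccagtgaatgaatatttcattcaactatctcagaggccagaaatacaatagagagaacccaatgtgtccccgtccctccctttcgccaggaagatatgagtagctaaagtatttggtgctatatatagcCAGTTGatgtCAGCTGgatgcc
Pdlim3: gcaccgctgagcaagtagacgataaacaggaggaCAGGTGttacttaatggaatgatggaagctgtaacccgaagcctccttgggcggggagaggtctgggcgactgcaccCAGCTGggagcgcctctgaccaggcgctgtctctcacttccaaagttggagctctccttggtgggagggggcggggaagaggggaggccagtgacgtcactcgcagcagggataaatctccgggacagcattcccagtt
Actn2 held 3 E-boxes, CATATG at 245 bases and CACGTG at 84 and 48 bases before the start. Des held CAAATG at 220 and CAGCTG at 36 bases, Myoz2 held CAGTTG at 22 and CAGCTG at 12 bases, and Pdlim3 held CAGGTG at 216 and CAGCTG at 139 bases before the start. The windows of Flnc held none. Over 32851 windows of the same 250 bases, CANNTG on either strand occurred in 66.2%, CAGCTG in 13.0%, CACCTG in 17.2% and the TG repeat TGTGTGTG in 3.55%. CAGCTG and CACCTG are themselves forms of CANNTG, and CAGGTG is the reverse complement of CACCTG. No window of the 6 genes held TGTGTGTG. Such matches describe letters in these windows and not binding.

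The lists differed in ways that bear on every count below. They held 8162 to 115000 peaks in control cells and 20453 to 116064 after siMyolinc, and the change went in different directions: MyoD lists grew from 71884 to 109541 peaks, Pol II S2P lists from 10716 to 116064, and Myogenin lists shrank from 115000 to 20453. The 3 TDP-43 controls held 29703, 10571 and 8162 peaks against 24964 after siMyolinc. Peak scores were whole multiples of a step in each list, read here as sequence tags. If scores were scaled to 10000000 tags, which no header states, the libraries held between 962363 and 3775523 tags, the 3 TDP-43 controls and the Pol II S2P control being the shallowest. Median peak width was 75 bases in the MyoD and Myogenin siMyolinc lists and 217 to 249 bases in the other 8. The median peak of the Myogenin siMyolinc list held 137 tags against 15 in its control, so tags are compared inside a list and not between lists. Muscle markers with a Pol II S2P peak numbered 4 of 8 in control and 6 of 8 after siMyolinc, hepatocyte markers 1 and 6 of 6, neuronal markers 1 and 5 of 6, and blood markers 0 and 1 of 4. All protein-coding genes had a Pol II S2P peak of any class in 26.8% of cases in control and 77.0% after siMyolinc. The larger list thus also held peaks named for genes of other tissues. A change of peak number between the conditions cannot be told apart from these changes of list length, depth and peak shape. In bulk chromatin, fewer bound cells and less binding per cell cannot be told apart either.

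No TDP-43 peak was annotated to the promoter of a Z-disc gene. The count was 0 of 10 genes in each of the 3 control lists and 0 of 10 after siMyolinc, where a promoter peak is one that the authors' annotation classes as promoter-TSS. Over all protein-coding genes a promoter peak was listed for 5.09%, 2.12% and 1.65% in control replicates 1, 2 and 3 and for 2.49% after siMyolinc. At each of these rates, fewer than 1 gene in 10 would be called. MyoD had a promoter peak at 1 gene in control, Flnc, and at 2 genes after siMyolinc, Tcap and Ldb3, against 4.01% and 11.2% of all genes. Myogenin had none in either condition, against 6.46% and 2.46%, and Pol II S2P had none, against 1.55% and 8.89%. The MyoD control peak at Flnc lay at -690 bases from the start with 6 tags (95% Poisson interval 2.2 to 13.1) and ranked 58258 of 71884. After siMyolinc, the MyoD peak at Tcap lay at -613 bases from the start, at chr11:98383161-98383235, with 55 tags (41.4 to 71.6) and ranked 846 of 109541, and the Ldb3 peak printed above had 24 tags, the median of its list. None of the 3 promoter peaks was overlapped by a peak of another list. Over all peaks, such an overlap held for 9.14% in the MyoD control list and 9.28% in the MyoD siMyolinc list. The Poisson intervals describe counting error alone, because tags copied by PCR are not separate molecules.

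Within 1 kb of the start used by the annotation, TDP-43 had 2 control peaks, neither classed as promoter. In control replicate 1 a peak of 7 tags lay in the 5' UTR of Actn2 at +200 bases, and a peak of 9 tags lay in exon 2 of Tcap at +575 bases. Neither was listed in control replicate 2, control replicate 3 or after siMyolinc. At Ldb3 the count depends on the start used. The outermost RefSeq start of Ldb3 lies upstream of the annotated one, and TDP-43 control replicates 1 and 2 had peaks of 13 and 7 tags at -750 and -755 bases from it, which the annotation classes as the 3' UTR of the neighbour Opn4. Counted from the outermost RefSeq start of each gene, from 1000 bases before to 100 after, Ldb3 would have a TDP-43 promoter peak in 2 of 3 controls and none in control replicate 3 or after siMyolinc. The Pol II S2P control had a peak at the same site, -731 bases from that start. The map of distances shows that most peaks of each antibody lay several kilobases from the start.

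**Figure D1:**
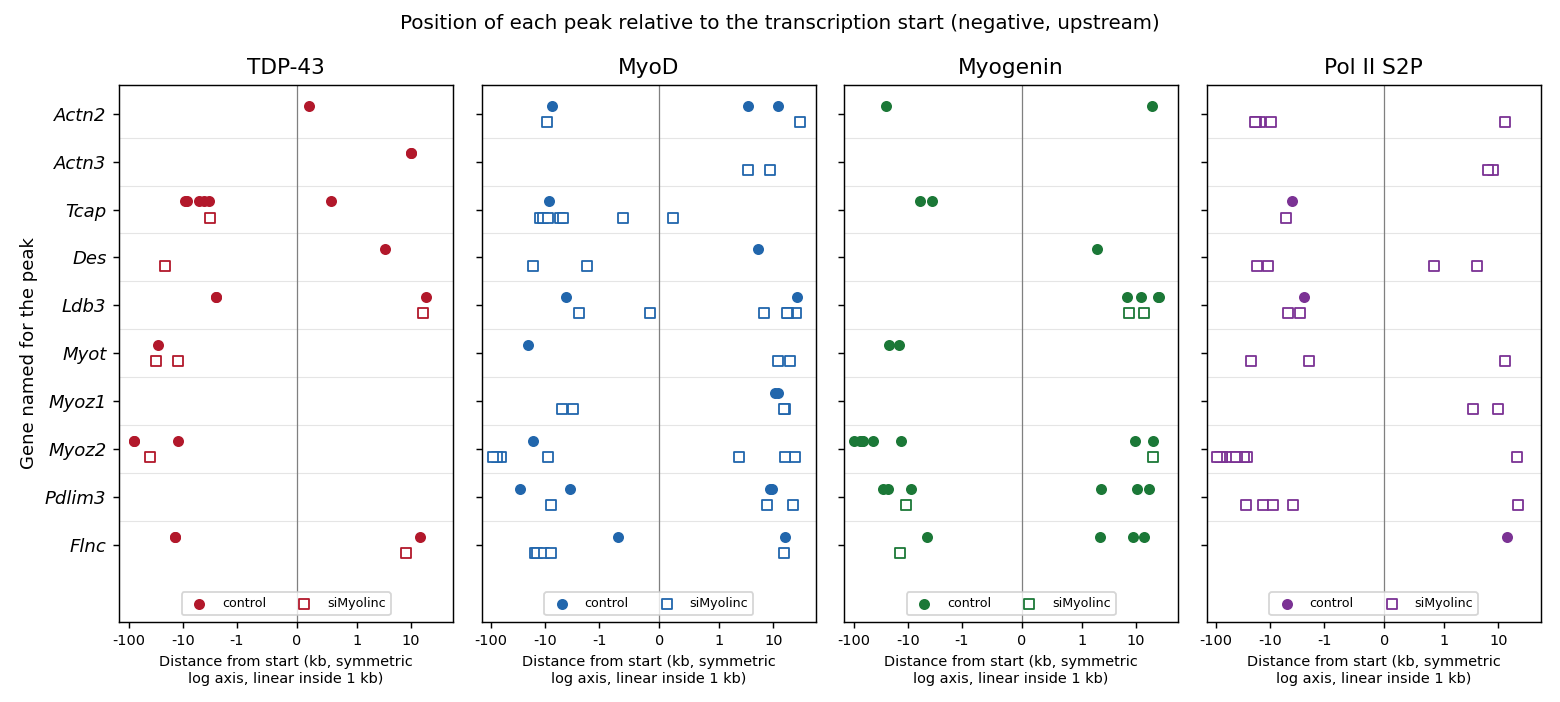
Each point is 1 peak, placed by its signed distance from the transcription start of the gene it is named for (x axis, kb, symmetric log scale, linear inside 1 kb); rows are the 10 Z-disc genes, panels the 4 antibodies, filled circles control (3 lists for TDP-43, 1 for the others) and open squares siMyolinc. Few points lie within 1 kb of the start, and among those MyoD peaks of Tcap and Ldb3 come from siMyolinc and that of Flnc from control.

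TDP-43 peaks named for Z-disc genes numbered 10, 5 and 5 in the 3 control lists, 6.67 ± 2.89 (SD, n = 3), and 7 after siMyolinc, inside the range of the controls. They fell at 7, 4 and 3 of the 10 genes in the controls, 4.67 ± 2.08 (SD, n = 3), and at 6 after siMyolinc. All protein-coding genes had such a peak in 49.3%, 26.8% and 22.3% of cases in the controls and in 45.1% after siMyolinc, below the share of the 10 genes in each of the 4 lists. Genes with a named peak in 2 or more control lists, at the same site or not, numbered 5, Actn3, Tcap, Ldb3, Myoz2 and Flnc, against 29.6% of all genes. Among these named peaks, Actn3 had a site shared by control lists in its own body. The shared sites of Ldb3, Myoz2 and Flnc lay in the neighbours Opn4, Synpo2 and Ccdc136, and Tcap had none. Tcap was the 1 gene with a peak in all 3 controls, at different places, against 13.5%. Actn2 and Actn3 had a TDP-43 peak in at least 1 control and none after siMyolinc, a pattern of 20.9% of all genes. Both genes did hold siMyolinc TDP-43 peaks in their bodies that were named for a neighbour, described further on. No member had a named TDP-43 peak after siMyolinc and in no control, against 10.7%. For a single gene, 3 controls against 1 siMyolinc library cannot give an exact two-sided permutation p below 0.25. That value was reached by Myot, with 0, 1 and 0 control peaks and 2 after siMyolinc. The exact permutation p was 0.75 for Tcap, with 3, 1 and 2 control peaks and 1 after siMyolinc, and 1 for the other 8 genes.

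Exons held 6 of 10, 1 of 5 and 3 of 5 TDP-43 peaks of Z-disc genes in control replicates 1, 2 and 3, against 18.8%, 24.1% and 25.6% of all peaks in those lists. Replicate 2, at 20.0%, thus lay below its list and had more intron peaks (2 of 5) than exon peaks. Of the 20 peaks of the 3 lists together, 10 were exonic, and 5 of these 10 lay in exons of a neighbouring gene. Some sites are counted in more than 1 list, such as exon 10 of Actn3. A further 4 of the 20 were intronic (20.0% against 30.6%), 3 lay in a 3' UTR, 1 in a 5' UTR and 2 between genes (10.0% against 38.2%). After siMyolinc, 2 of 7 were exonic (28.6% against 6.93% of all peaks in that list). A further 1 lay in a 3' UTR (14.3% against 1.43%) and 4 lay between genes (57.1% against 46.8%). Genes with an exon peak numbered 5 in control replicate 1 (Actn3, Tcap, Des, Myoz2 and Flnc), 1 in replicate 2 (Actn3), 2 in replicate 3 (Myoz2 and Flnc) and 2 after siMyolinc (Ldb3 and Flnc). The background was 17.1%, 8.87%, 7.49% and 6.63% of all genes. The exon share of whole lists moved with depth. It was 18.8% to 25.6% in the TDP-43 controls and 21.4% in the Pol II S2P control, the 4 shallowest libraries, and 1.84% to 6.93% in the other 6. The part of depth in the exon counts was not tested. Tags per TDP-43 peak ranged from 5 to 26 in control and from 6 to 12 after siMyolinc, and the plot of tags by gene shows wide counting intervals.

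**Figure D2:**
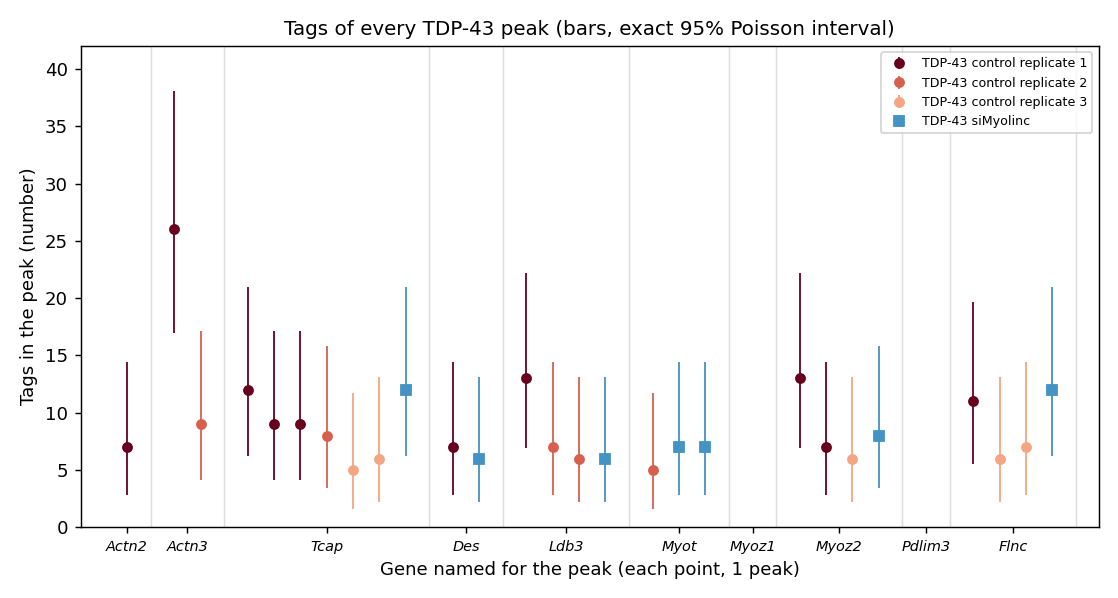
Tags (y axis, number) of every TDP-43 peak named for a Z-disc gene (x axis), with exact 95% Poisson intervals as bars; circles are the 3 control libraries and squares the siMyolinc library. The exon 10 peak of Actn3 in control replicate 1 stands highest at 26 tags, the other peaks hold 5 to 13, and Myoz1 and Pdlim3 have none.

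MyoD peaks named for Z-disc genes numbered 17 in control and 40 after siMyolinc, at 9 and 10 of the 10 genes. The background was 64.9% of all genes in control and 75.6% after siMyolinc. Actn3 was the 1 gene with MyoD peaks after siMyolinc only, a pattern of 17.2% of all genes, and the other 9 had peaks in both conditions, against 58.4%. Control peaks comprised 1 promoter, 2 exon, 1 3' UTR, 6 intron and 7 intergenic peaks. The siMyolinc peaks comprised 2 promoter, 6 exon, 2 3' UTR, 23 intron and 7 intergenic peaks. Introns held 35.3% of these peaks in control and 57.5% after siMyolinc, against 40.2% and 40.8% of all MyoD peaks. Of the 40 siMyolinc peaks, 15 lay in the transcript of another gene. The list itself was longer after siMyolinc, and the difference has no replicate check.

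Myogenin peaks named for Z-disc genes numbered 29 in control and 5 after siMyolinc, at 8 and 4 genes. The background was 73.2% and 39.7% of all genes, so both counts were close to it. Actn2, Tcap, Des and Myot had Myogenin peaks in control only, a pattern of 37.3% of all genes. Ldb3, Myoz2, Pdlim3 and Flnc had them in both conditions, against 35.9%, and Actn3 and Myoz1 had them in neither by name. By position Actn3 held 1 Myogenin control peak, of 24 tags in exon 13, named for its neighbour Ctsf. Control peaks comprised 1 exon, 1 3' UTR, 19 intron and 8 intergenic peaks, and the siMyolinc peaks comprised 1 exon, 3 intron and 1 intergenic peak. The Myogenin peak with the highest rank lay in Des.

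Pol II S2P peaks named for Z-disc genes numbered 3 in control, at Tcap, Ldb3 and Flnc, and 34 after siMyolinc, at 9 genes. The background was 26.8% of all genes in control and 77.0% after siMyolinc. The 7 genes with peaks after siMyolinc only matched a pattern of 51.7% of all genes. Flnc was the 1 gene with a Pol II S2P peak in control only, which 1.48% of all genes showed. By position Flnc did not follow that pattern, since 1 siMyolinc peak of 8 tags lay in its exon 42 and was named for a neighbour. The control peaks lay in an exon, a 3' UTR and an intron, and 2 of the 3 lay in the transcript of another gene. The siMyolinc peaks comprised 1 exon, 16 intron, 2 gene-end and 15 intergenic peaks. Introns held 47.1% of them against 41.6% of all peaks in that list, and 44.1% were intergenic against 49.6%. The grid of counts shows all 10 genes in all 10 lists.

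**Figure D3:**
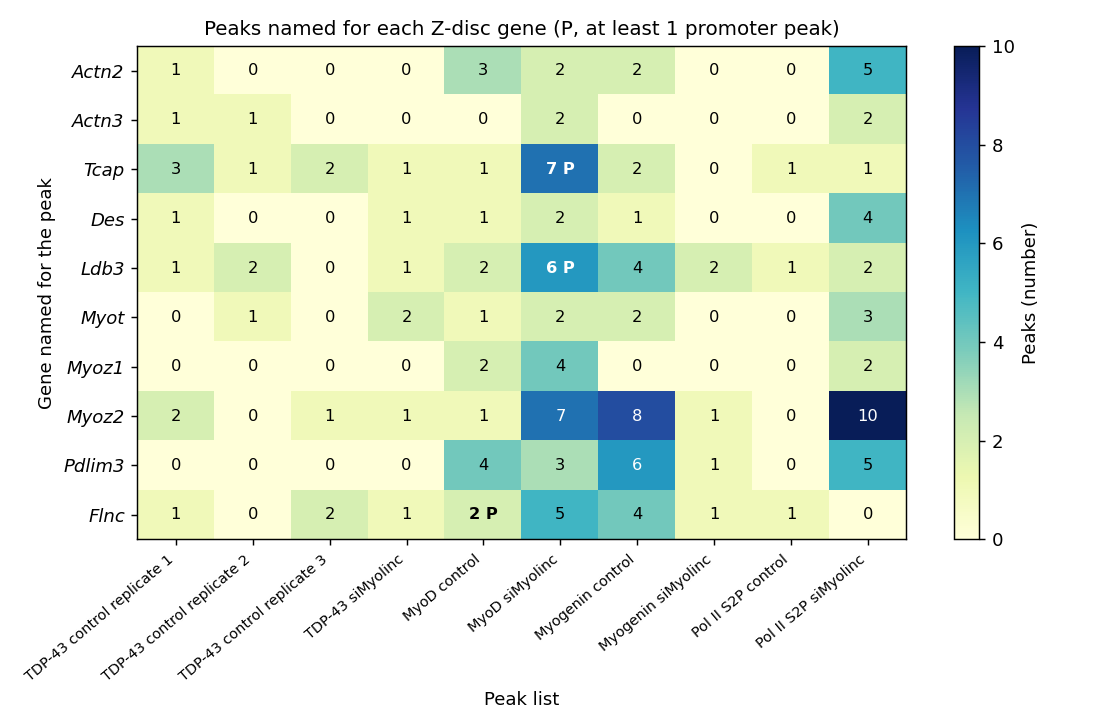
Number of peaks (colour and digit) named for each Z-disc gene (rows) in each of the 10 lists (columns), with P where at least 1 peak is in the promoter. The 3 longest lists, MyoD siMyolinc, Myogenin control and Pol II S2P siMyolinc, hold 40, 29 and 34 of these peaks, and the other 7 hold 3 to 17.

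Of the alpha-actinin genes, Actn2 had 13 named peaks in 5 lists. They were 1, 0 and 0 in the TDP-43 controls and 0 after siMyolinc, 3 and 2 for MyoD in control and siMyolinc, 2 and 0 for Myogenin, and 0 and 5 for Pol II S2P. Of the Pol II S2P peaks of Actn2, 4 lay 9.72 to 19.0 kb before the start and 1 lay in intron 1. The MyoD control peak of Actn2 with most tags lay in intron 1 at +3339 bases, with 14 tags and rank 3078 of 71884. Actn3 had 6 named peaks in 4 lists: 1 in TDP-43 control replicates 1 and 2 each, 2 for MyoD after siMyolinc and 2 for Pol II S2P after siMyolinc. Its TDP-43 peak lay in exon 10 of 21 at chr19:4867783-4868038, 10.0 kb after the start. It held 26 tags (17.0 to 38.1) at rank 93 of 29703 in control replicate 1 and 9 tags (4.12 to 17.1) at rank 873 of 10571 in replicate 2. Control replicate 3 and the siMyolinc list had no peak there. The replicate 1 peak was thus in the top 0.313% of its list, the highest-ranked TDP-43 peak named for a Z-disc gene. The MyoD and Pol II S2P peaks of Actn3 lay in introns, with 8 to 28 tags.

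Tcap, encoding the titin cap, is a gene of 1.14 kb with 2 exons, and 16 of its 19 named peaks lay in the transcript of its upstream neighbour Stard3, which encodes a late-endosomal sterol transporter. Named peaks numbered 3, 1 and 2 in the TDP-43 controls and 1 after siMyolinc. MyoD had 1 in control and 7 after siMyolinc, Myogenin 2 and 0, and Pol II S2P 1 in each condition. The 3 peaks at Tcap itself were the exon 2 peak of TDP-43 control replicate 1 and 2 MyoD siMyolinc peaks, the promoter peak described above and a peak in intron 1. The intron 1 peak lay 222 bases after the start with 52 tags (38.8 to 68.2) and ranked 1422 of 109541. These were the MyoD siMyolinc peaks named for Z-disc genes with most tags. The MyoD control peak named for Tcap lay 8.65 kb before the start. MyoD control peaks named for other genes were not placed by distance from the Tcap start, so a nearer one is not excluded. TDP-43 peaks in Stard3 fell at different places in different libraries: exon 4 and intron 12 in control replicate 1, intron 13 in replicate 2, and intron 2 and the 3' UTR in replicate 3. The 3' UTR peak of replicate 3 (6 tags) was overlapped by the siMyolinc peak (12 tags, rank 555 of 24964). The intron 13 peak of replicate 2 (8 tags) was overlapped by the Pol II S2P control peak (8 tags), and the intron 12 peak of replicate 1 (9 tags) by the Pol II S2P siMyolinc peak (15 tags).

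Des, encoding desmin, had 10 named peaks in 6 lists, none of them inside another gene. The TDP-43 lists held 1 peak in control replicate 1, in exon 6 with 7 tags, and 1 after siMyolinc, 20.9 kb before the start with 6 tags. MyoD had 1 control peak in intron 7 and 2 siMyolinc peaks at 16.7 and 1.65 kb before the start. Myogenin had 1 peak, in control, in intron 2 at chr1:75362123-75362341, 1888 bases after the start. It held 41 tags (29.4 to 55.6) and ranked 240 of 115000, within the top 0.209% of its list and highest among the Myogenin control peaks of Z-disc genes. No Myogenin siMyolinc peak was named for Des. Pol II S2P had 0 peaks in control and 4 after siMyolinc, with 6 to 12 tags, of which 2 lay in introns 1 and 6. The Des promoter window printed above held no peak named for a Z-disc gene in any of the 10 lists.

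Of the adaptor genes, Ldb3 had 21 named peaks in 9 lists, TDP-43 control replicate 3 being the list without one. They numbered 1, 2 and 0 in the TDP-43 controls and 1 after siMyolinc, 2 and 6 for MyoD, 4 and 2 for Myogenin, and 1 and 2 for Pol II S2P. The site held by most lists lay in the 3' UTR of the neighbouring melanopsin gene Opn4 at chr14:34590933-34591188, -2402 to -2364 bases from the annotated Ldb3 start and 731 to 769 bases upstream of the outermost RefSeq start. TDP-43 control replicates 1 and 2 held 13 and 7 tags there, the Pol II S2P control 9 tags and the MyoD siMyolinc list 20 tags. The TDP-43 siMyolinc list had no peak at that site. Its Ldb3 peak lay in exon 5 with 6 tags. Both Myogenin siMyolinc peaks of Ldb3 were intronic, with 155 and 153 tags against a list median of 137. The 4 Myogenin control peaks, also intronic, held 13 to 19 tags against a list median of 15. No Myogenin peak of one condition overlapped one of the other at Ldb3. The promoter peak printed above lies inside the full RefSeq span of Ldb3, whose longest transcripts begin further upstream.

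Pdlim3 had 19 named peaks in 5 lists and no TDP-43 peak in any of the 4 TDP-43 lists. MyoD had 4 peaks in control and 3 after siMyolinc, Myogenin 6 and 1, and Pol II S2P 0 and 5. The highest-ranked MyoD control peak of Pdlim3 lay in intron 1 at +8730 bases, with 15 tags and rank 1960 of 71884, in a long terminal repeat element. Myot had 11 named peaks in 6 lists, and 8 of them lay between genes, upstream of the start. TDP-43 had 1 peak in control replicate 2, in a CA simple repeat 28.2 kb before the start with 5 tags, and 2 peaks of 7 tags each after siMyolinc, 30.9 and 12.2 kb before the start. MyoD had 1 control peak and 2 siMyolinc peaks at Myot, both of the latter in exons, Myogenin had 2 and 0, and Pol II S2P 0 and 3.

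Of the calsarcin genes, Myoz1 had 8 named peaks in 3 lists: MyoD control (2), MyoD siMyolinc (4) and Pol II S2P siMyolinc (2), and neither TDP-43 nor Myogenin had one. Of these, 5 lay 9.87 to 16.1 kb after the start and beyond the gene, 2 lay in Synpo2l, and 1 Pol II S2P peak lay in intron 3 of Myoz1. Myoz2 had 31 named peaks in 8 lists, the most among the 10 genes. They numbered 2, 0 and 1 in the TDP-43 controls and 1 after siMyolinc, 1 and 7 for MyoD, 8 and 1 for Myogenin, and 0 and 10 for Pol II S2P. Of the 31, 17 lay in Synpo2, a neighbouring gene for an actin-binding protein that is itself a Z-disc gene, up to 100 kb before the Myoz2 start. The TDP-43 peaks of control replicates 1 and 3 overlapped in exon 4 of Synpo2 at chr3:123113126-123113382, with 13 and 6 tags. In Myoz2 itself, the Myogenin control and siMyolinc lists shared a peak in intron 4 at chr3:123014355-123014573, in a LINE element. The control peak held 20 tags at rank 25714 of 115000. The siMyolinc peak held 23 tags at rank 19237 of 20453, near the bottom of its list. This was the 1 Myogenin site of a Z-disc gene seen in both conditions.

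Flnc, encoding filamin C, had 17 named peaks in 8 lists. They numbered 1, 0 and 2 in the TDP-43 controls and 1 after siMyolinc, 2 and 5 for MyoD, 4 and 1 for Myogenin, and 1 and 0 for Pol II S2P. TDP-43 control replicates 1 and 3 (11 and 6 tags) and the Myogenin siMyolinc list (171 tags) met in exon 15 of the neighbour Ccdc136 at chr6:29419054-29419310. In Flnc itself TDP-43 control replicate 3 had a peak in exon 21 of 48 (7 tags) that was overlapped by the Pol II S2P control peak (5 tags). The TDP-43 siMyolinc peak lay in exon 7 with 12 tags (6.2 to 21.0), rank 555 of 24964, where no control replicate had a peak. The MyoD siMyolinc peak of Flnc with most tags, 51 at rank 1657 of 109541, lay in intron 15 of Ccdc136.

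The nearest-start rule behind these names moved peaks in both directions, which bears on all counts above. Of the 155 named peaks, 60 lay inside the RefSeq span of the gene and 49 in the transcript of another gene: 17 in Synpo2, 16 in Stard3, 7 each in Opn4 and Ccdc136 and 2 in Synpo2l. Conversely, the 10 spans, 282 kb in all, held 100 peaks, of which 40 were named for another gene. Flnc lost 16 of 24 such peaks to Atp6v1f, Actn2 11 of 17 to Mtr, Ldb3 6 of 20 to 9230112D13Rik, Actn3 5 of 11 to Ctsf and Pdlim3 2 of 10 to Ccdc110. Counted by position, Actn2 held 4, 2 and 0 TDP-43 peaks in the controls and 2 after siMyolinc, and Actn3 held 2, 1 and 0 and 1. In exon 16 of 21 of Actn2, at chr13:12277333-12277597, TDP-43 control replicate 1 (9 tags) and siMyolinc (11 tags) had overlapping peaks, and in intron 16, at chr13:12276502-12276722, control replicate 2 (5 tags) and siMyolinc (7 tags) did. These 2 Actn2 sites are found when the lists are searched by position and not by name. In Ldb3, TDP-43 control replicates 1 and 2 overlapped with 5 tags each at chr14:34555319-34555690, where the annotation places the replicate 2 peak in exon 8 and the replicate 1 peak in intron 8, of different transcripts.

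Peak density in the 10 spans was higher than in the spans of all protein-coding genes in 8 of 10 lists. For TDP-43 it was 35.5, 17.7 and 7.1 peaks per Mb in the controls, against 17.5, 6.46 and 5.12 in all spans, and 21.3 against 12.8 after siMyolinc. The 3 control values rest on 10, 5 and 2 peaks. For MyoD it was 39.0 against 31.9 in control and 92.2 against 52.7 after siMyolinc. For Myogenin it was 60.3 against 49.0 and 24.8 against 10.2. For Pol II S2P it was 3.55 against 6.16 in control, resting on 1 peak, and 53.2 against 56.3 after siMyolinc, resting on 15 peaks. The MyoD values rest on 11 and 26 peaks and the Myogenin values on 17 and 7. None of these differences from the background was tested.

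**Figure D4:**
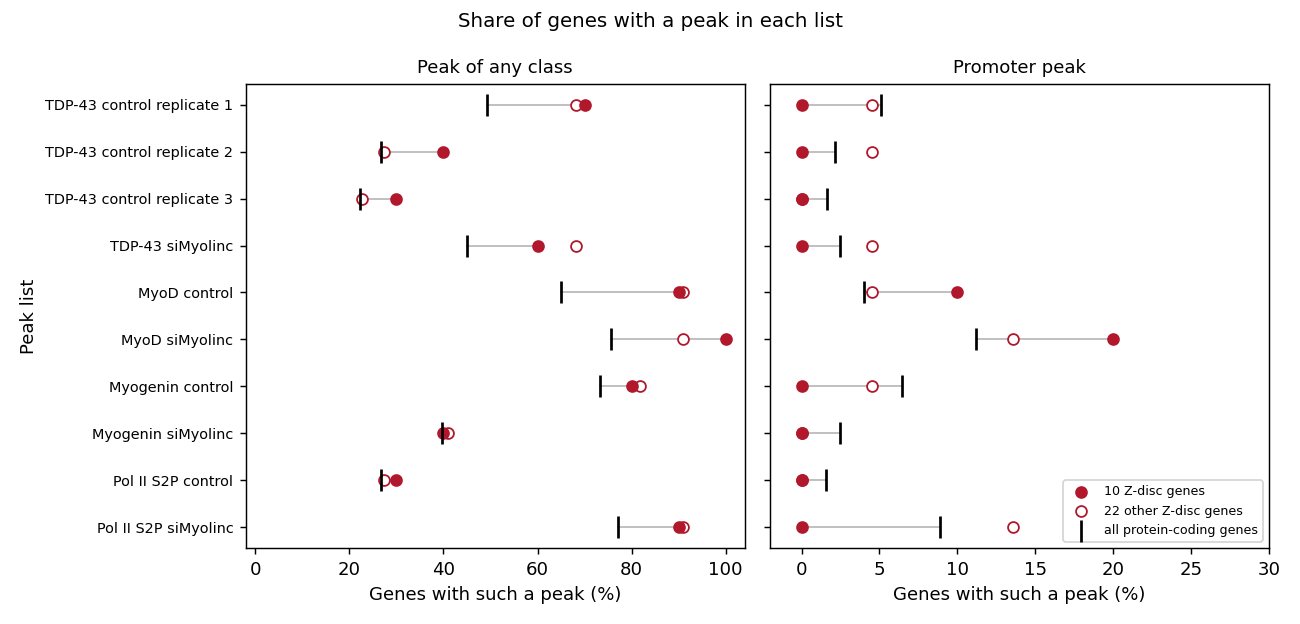
Share of genes with a peak (x axis, percent) in each list (rows), for a peak of any class (left) and a promoter peak (right); filled circles are the 10 Z-disc genes, open circles 22 other Z-disc genes and vertical ticks all protein-coding genes. For a peak of any class the filled circles lie at or to the right of the tick in every list, and for a promoter peak they lie at 0 in every list but the 2 MyoD lists.

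Most named sites were held by a single list. After merging overlapping peaks, the named peaks formed 137 sites, of which 122 were in a single list and 15 in 2 or more. The same share was not counted over the merged sites of all peaks. Control peaks found again after siMyolinc, by an overlap of 1 base or more, numbered 0 of 10, 0 of 5 and 1 of 5 for the TDP-43 controls, against 5.88%, 7.08% and 7.36% of all peaks in those lists. The Wilson 95% intervals of these member shares reached up to 27.8%, 43.4% and 62.4%. Such intervals treat the peaks of 1 library as independent, so they describe counting error and are no test against the background. For MyoD 0 of 17 were found again (upper limit 18.4%), against 1.77%. For Myogenin 1 of 29 was found again (interval 0.611% to 17.2%), against 0.355%, a share that rests on 1 peak. For Pol II S2P 0 of 3 were found again, against 10.5%. Overlap with any of the other 9 lists was more common for the shallow control lists. It held for 5 of 10, 4 of 5 and 4 of 5 named peaks of the TDP-43 controls, against 44.2%, 65.4% and 70.1% of all their peaks, and for 3 of 3 in the Pol II S2P control, against 56.1%. After siMyolinc it held for 1 of 7 TDP-43 peaks, against 21.2%. For MyoD the overlap held for 1 of 17 control and 4 of 40 siMyolinc peaks, against 9.14% and 9.28%. For Myogenin it held for 5 of 29 and 2 of 5, against 7.93% and 13.2%. For Pol II S2P after siMyolinc it held for 4 of 34, against 11.1%. The shared sites of the Pol II S2P control were sites of TDP-43 controls in all 3 cases, at Tcap, Ldb3 and Flnc. These 3 Pol II S2P peaks held 5 to 9 tags. The share of all Pol II S2P control peaks that overlap a TDP-43 control peak was not counted, so the 3 cases have no background.

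A list of 22 other Z-disc genes, not members of the first, was counted in the same way. Genes with a peak numbered 15, 6 and 5 in the TDP-43 controls and 15 after siMyolinc, 20 and 20 for MyoD, 18 and 9 for Myogenin, and 6 and 20 for Pol II S2P. For TDP-43 these were 68.2%, 27.3%, 22.7% and 68.2% of the 22, against 49.3%, 26.8%, 22.3% and 45.1% of all protein-coding genes. For MyoD they were 90.9% in both, against 64.9% and 75.6%. Myogenin had 81.8% and 40.9%, against 73.2% and 39.7%, and Pol II S2P 27.3% and 90.9%, against 26.8% and 77.0%. Promoter peaks of TDP-43 were at Capzb, an actin-capping subunit, in control replicate 1 (8 tags, -159 bases) and at Synpo2l in control replicate 2 (5 tags, +62 bases) and after siMyolinc (7 tags, -847 bases). MyoD had a promoter peak at Smpx in control and at Pdlim1, Capzb and Nrap after siMyolinc. Myogenin had 1 at Mypn in control, and Pol II S2P had them at Pdlim5, Fhl2 and Capzb after siMyolinc. Promoter shares for TDP-43 were 4.55%, 4.55%, 0.0% and 4.55% of the 22, against 5.09%, 2.12%, 1.65% and 2.49% of all genes. For MyoD they were 4.55% and 13.6%, against 4.01% and 11.2%. Myogenin had 4.55% and 0.0%, against 6.46% and 2.46%, and Pol II S2P 0.0% and 13.6%, against 1.55% and 8.89%. The peaks with most tags were in Ankrd2 for TDP-43 control replicate 1 (20 tags, in an exon of the neighbour Ubtd1), in Smpx for MyoD control (21 tags), in Palld for MyoD siMyolinc (67 tags, rank 158 of 109541) and in introns of Nrap for Myogenin control (33 tags) and siMyolinc (250 tags). Nebl (10 tags) had the most in TDP-43 control replicate 2, Fhl1 and Pdlim1 (8 tags each) in replicate 3, and Palld and Nebl (10 tags each) after siMyolinc. Fhl1 and Mypn (7 tags each) had the most in the Pol II S2P control and Pdlim5 (29 tags) after siMyolinc.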

How the data were processed

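ChIP-seq of C2C12 cells gave 10 peak lists, 6 control and 4 siMyolinc. Per the labels' protocols, chromatin was precipitated with 10 µg of antibody and 100 ng of DNA was amplified by 18 cycles of PCR. IgG served as the background for peak calling, and the authors used HOMER for annotation on mm10, per the file headers and the submitters' processing notes. Aligner, calling settings and the HOMER release were not given in the sources used here. The score of each peak, as deposited by the authors, served to describe and rank peaks within 1 list. The deposited distance to the transcription start, in bases per the file headers, gave the positions.

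The 10 genes and the list of 22 other Z-disc genes were chosen with earlier results of these data known. All 10 members are named. Other Z-disc genes are named where they had a promoter peak, or the peak with most tags of a list. All 10 members and all 22 others were matched in the reference table (GRCm38.p6). Scores were whole multiples of 1 step in each list, within 0.05 and after the highest 1% were set aside, and score divided by step gave tags. On simulated scores the step was recovered within 0.022% in every list. A call means at least 1 peak with the gene's name, set beside the same share over 21900 protein-coding genes. Overlap needed 1 base. Peaks on the mitochondrial genome were left out of overlaps. TDP-43 alone had replicates, so 3 controls were compared with 1 siMyolinc library per gene by an exact two-sided permutation test. Other differences have no test. Shares carry Wilson intervals and tags exact Poisson intervals, both at 95%. Alternatives were a score threshold at the list median, lists of equal length, repeats left out, assignment by RefSeq span or 5 kb around it, other promoter widths, promoters counted from the outermost RefSeq start, other overlaps and each TDP-43 control left out. Python 3.11.15, pandas 2.3.3, numpy 2.4.6 and scipy 1.17.1 were used.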

Additional observations from a re-analysis of the deposited data

Results flagged for a closer look

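The number of peaks named for the 10 Z-disc genes moved in opposite directions between antibodies after siMyolinc. It was higher by 23 for MyoD (17 to 40) and by 31 for Pol II S2P (3 to 34), and the difference was -24 for Myogenin (29 to 5). Each condition had 1 library per antibody, so the difference between antibodies was not tested. Whole lists moved the same way, from 71884 to 109541 peaks for MyoD, from 10716 to 116064 for Pol II S2P and from 115000 to 20453 for Myogenin. The part of list length in these differences was not tested beyond the lists of equal length given under the dependence on processing.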

How the results depend on the processing

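With both lists of an antibody cut to the shorter length by score, the siMyolinc minus control difference changed sign for 3 antibodies. For genes with a peak, TDP-43 went from 1.33 to -1, Myogenin from -4 to 3 and Pol II S2P from 6 to -2. For peaks, TDP-43 went from 0.333 to -2, Myogenin from -24 to 4, Pol II S2P from 31 to -1 and MyoD from 23 to 13. When peaks below the median score were dropped, genes with a peak differed by 0.333 (TDP-43) and 4 (MyoD), peaks by 15 (Pol II S2P), 12 (MyoD), 0 (TDP-43) and -11 (Myogenin), and genes with a promoter peak by 2 (MyoD). Without repeat peaks, genes differed by 0.667 (TDP-43) and 2 (MyoD), peaks by 0 (TDP-43) and 19 (Pol II S2P), and 0 Myogenin control peaks were found again. By RefSeq span and 5 kb around it, peaks differed by -0.667 (TDP-43) and -9 (Myogenin), and genes by 2 (MyoD). Leaving out 1 TDP-43 control gave 0.5 to 2.5 for genes with a peak and -0.5 to 2 for peaks. The peak difference was 2 without replicate 1 and -0.5 without replicate 2 or replicate 3.

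With a promoter of 1000 bases around the start, genes with a promoter peak differed by -0.667 (TDP-43) and 1 (Pol II S2P). With 5000 bases they differed by 4 (Pol II S2P), 2 (MyoD), -1.33 (TDP-43) and -4 (Myogenin). Counted from the outermost RefSeq start, an alternative added after seeing the data, they differed by -0.667 (TDP-43, Ldb3 in controls 1 and 2) and -1 (Pol II S2P, Ldb3). No share over all genes was set beside these promoter alternatives. Extending peaks by 500 bases, control peaks found again numbered 1 for TDP-43 replicate 2, 4 (MyoD), 2 (Myogenin) and 2 (Pol II S2P). Requiring 50% of the shorter peak gave 0 for TDP-43 replicate 3. Searching by span, an alternative chosen after seeing the data, gave 1, 1 and 0 for the TDP-43 replicates. The cause of these shifts was not tested. No paired analysis was possible because no antibody has 2 or more replicate numbers shared between control and siMyolinc. Low tag numbers, 5 to 13 in all but 1 of the TDP-43 peaks named for these genes, limit what the TDP-43 lists can show.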
